A study of Homo sapiens with 9 samples.

Results

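Mitochondrial ribosomal proteins are described here through the protein-coding genes whose symbols begin with MRPL or MRPS followed by a digit and whose mean over the 9 libraries reached 10 counts. Of 78 such genes 77 met the minimum, among 62703 gene identifiers in all. They comprised 48 MRPL genes, named for the large subunit, and 29 MRPS genes, named for the small subunit. All 77 also passed the low-count filter of the test, as did 17623 genes in total. MRPS24 lay just inside the minimum with a mean of 10.7 counts, and MRPL53 was left out with a mean of 0.444 counts. The rule used no comparison between groups.

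HepG2, an established human hepatocellular carcinoma (liver cancer) line, was left untreated or was given eliglustat, which inhibits glucosylceramide synthase, at 20 µM or 30 µM for 72 h. Each of the 3 groups had 3 RNA sequencing libraries, with 21103757 to 26782810 counts in genes; a time is labelled for treated cells only. All 12 hepatocyte lineage markers were among the genes tested, with a summed level of 34562 to 35889 CPM (the counts in a gene scaled to a common library total) in controls, 39149.9 to 39655 CPM at 20 µM and 44149 to 44737 CPM at 30 µM. Most of that sum was APOB, and 5 of the 12 rose while 5 fell at 30 µM (median -0.03). The 5 fibroblast markers summed to at most 3.47 CPM and the 4 endothelial markers to at most 6.34 CPM. The 5 leukocyte markers summed to 438 to 667 CPM, nearly all of it LYZ, and PTPRC, which marks all leukocytes, was at 0. No label names separate cultures behind the libraries of 1 group. The spread that p-values rest on is thus that between libraries, and it may be technical. Control library 1, 20 µM library 3 and 30 µM library 3 deviated together from their group means (correlations across genes of 0.33 to 0.35). Each of the 3 correlated negatively with the libraries of other groups outside this set (at most -0.15). Deviations are taken from group means, so a positive correlation forces negative ones, and the negative values add no evidence. Counts that lead the text are therefore also given without these 3 libraries. In bulk RNA, fewer cells of a type and less RNA per cell cannot be told apart.

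The mitochondrial ribosome translates the few messenger RNAs encoded by mitochondrial DNA, all of which specify subunits of the respiratory chain and ATP synthase. Its RNAs come from mitochondrial DNA, but its proteins are encoded in the nucleus, made on cytosolic ribosomes and imported. Some descend from bacterial ribosomal proteins and others were gained in the mitochondrial lineage. Hepatocytes are rich in mitochondria, and the large subunit carries the peptidyl transferase centre while the small subunit reads the messenger.

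Transcripts of mitochondrial ribosomal proteins were lower in treated cells. Summed over the 48 large subunit genes, the level was 2112, 2098 and 2120.1 CPM in the control libraries. It was 1762, 1766 and 1842 CPM at 20 µM and 1648, 1652 and 1661 CPM at 30 µM. Ranges of the 3 groups were separate, and the means lay 15.2% and 21.6% below the control mean. The 29 small subunit genes summed to 1412, 1439 and 1423 CPM in controls. They summed to 1228, 1211 and 1250.2 CPM at 20 µM and to 1179, 1172 and 1179 CPM at 30 µM. These sums did not overlap either, and their means lay 13.7% and 17.4% below the control mean. CPM here are relative to library totals scaled by TMM (trimmed mean of M values), and no p-value is given for a sum over members.

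**Figure D1:**
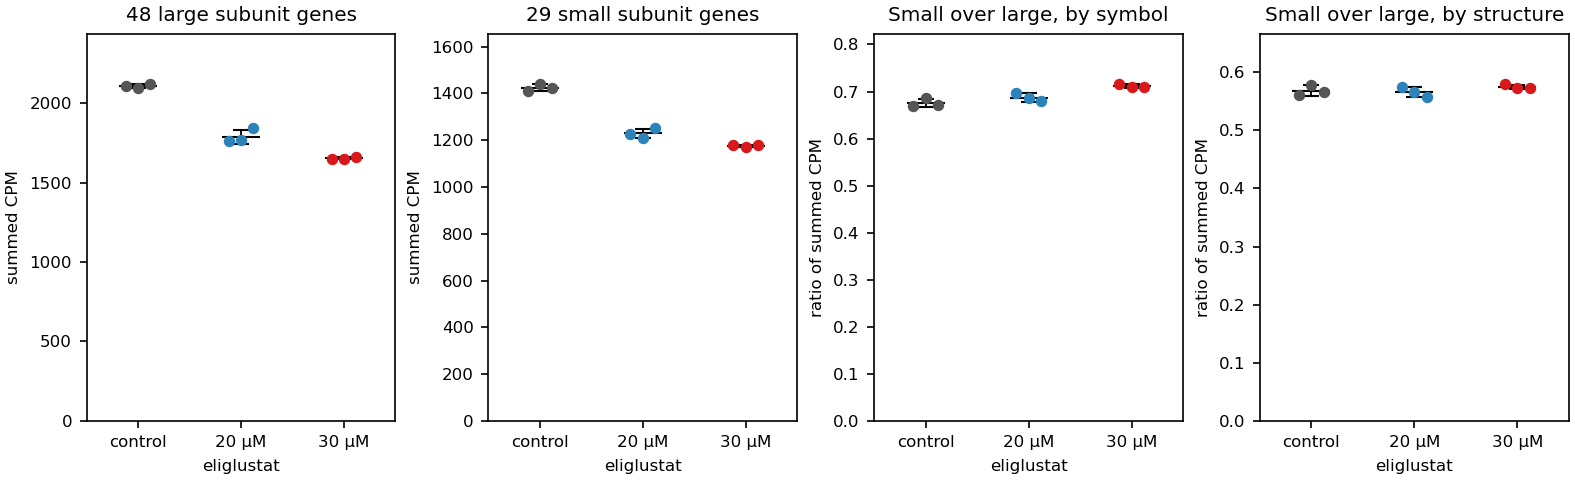
Summed CPM of the 48 MRPL and 29 MRPS genes and the ratio of small to large subunit sums, with genes assigned by symbol or by position in the ribosome, in each library (points) with the mean and SD (bars, n = 3). Both sums step down from control to 20 µM to 30 µM, and the ratio is higher at 30 µM when genes are assigned by symbol but overlaps control when they are assigned by structure.

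Gene by gene, 52 of 77 members fell at 20 µM, and the other 25 did not pass the test. The test was edgeR quasi-likelihood with Benjamini-Hochberg adjustment over all genes at 0.05. By the same test 34.2% of all genes changed, 17.2% upward and 16.9% downward. Among the 12372 other protein-coding genes tested 22.2% fell. By subunit, 32 of 48 large subunit genes and 20 of 29 small subunit genes fell, with median log2 changes of -0.21 and -0.22, against 0.01 over all genes. At an unadjusted p under 0.05 a single member was higher, and DESeq2 and limma voom each called 0 members higher. The one member above its controls in every library was MRPS17, named after its values were seen, at 7.16 ± 0.746 CPM in controls and 8.63 ± 0.85 CPM at 20 µM (SD, n = 3). Its log2 change of 0.27 ± 0.11 (SE) had an adjusted p of 0.0698 in edgeR. Another gene shares 27.0% of its exon length on the same strand, so its counts are uncertain.

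At 30 µM 57 of 77 members fell and 2 rose, MRPS30 and MRPS35. Over all genes 60.8% changed, 29.5% upward and 31.3% downward, and 35.3% of the other protein-coding genes fell. The fallers comprised 36 of 48 large subunit genes and 21 of 29 small subunit genes, with medians of -0.36 and -0.30, against -0.04 over all genes. The interquartile range over the 77 members was -0.54 to -0.15. Without the 3 libraries that deviate together 47 members fell and 1 rose at 20 µM, and 53 fell and 1 rose at 30 µM. Both comparisons use the same controls, so their values stand side by side and are not independent of each other.

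Between the doses 28 members were lower at 30 µM than at 20 µM and 5 were higher (MRPS35, MRPS23, MRPL15, MRPL32 and MRPS30). Of all genes 57.0% differed between the doses, 28.0% upward and 28.9% downward, and 32.8% of the other protein-coding genes were lower. Among members the share lower was 36.4%, close to that background. The share higher was 6.49%, against 35.8% of the other protein-coding genes. The share lower was 41.7% of large subunit genes and 27.6% of small subunit genes, with medians of -0.13 and -0.07, against -0.03 over all genes. Fitted changes were below 0 in 54 of 77 members. Scaled by library size alone, 57 members were lower and 1 higher between the doses. That scaling moved the median of all genes by -0.19 in this comparison and by -0.21 at 30 µM against control.

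**Figure D2:**
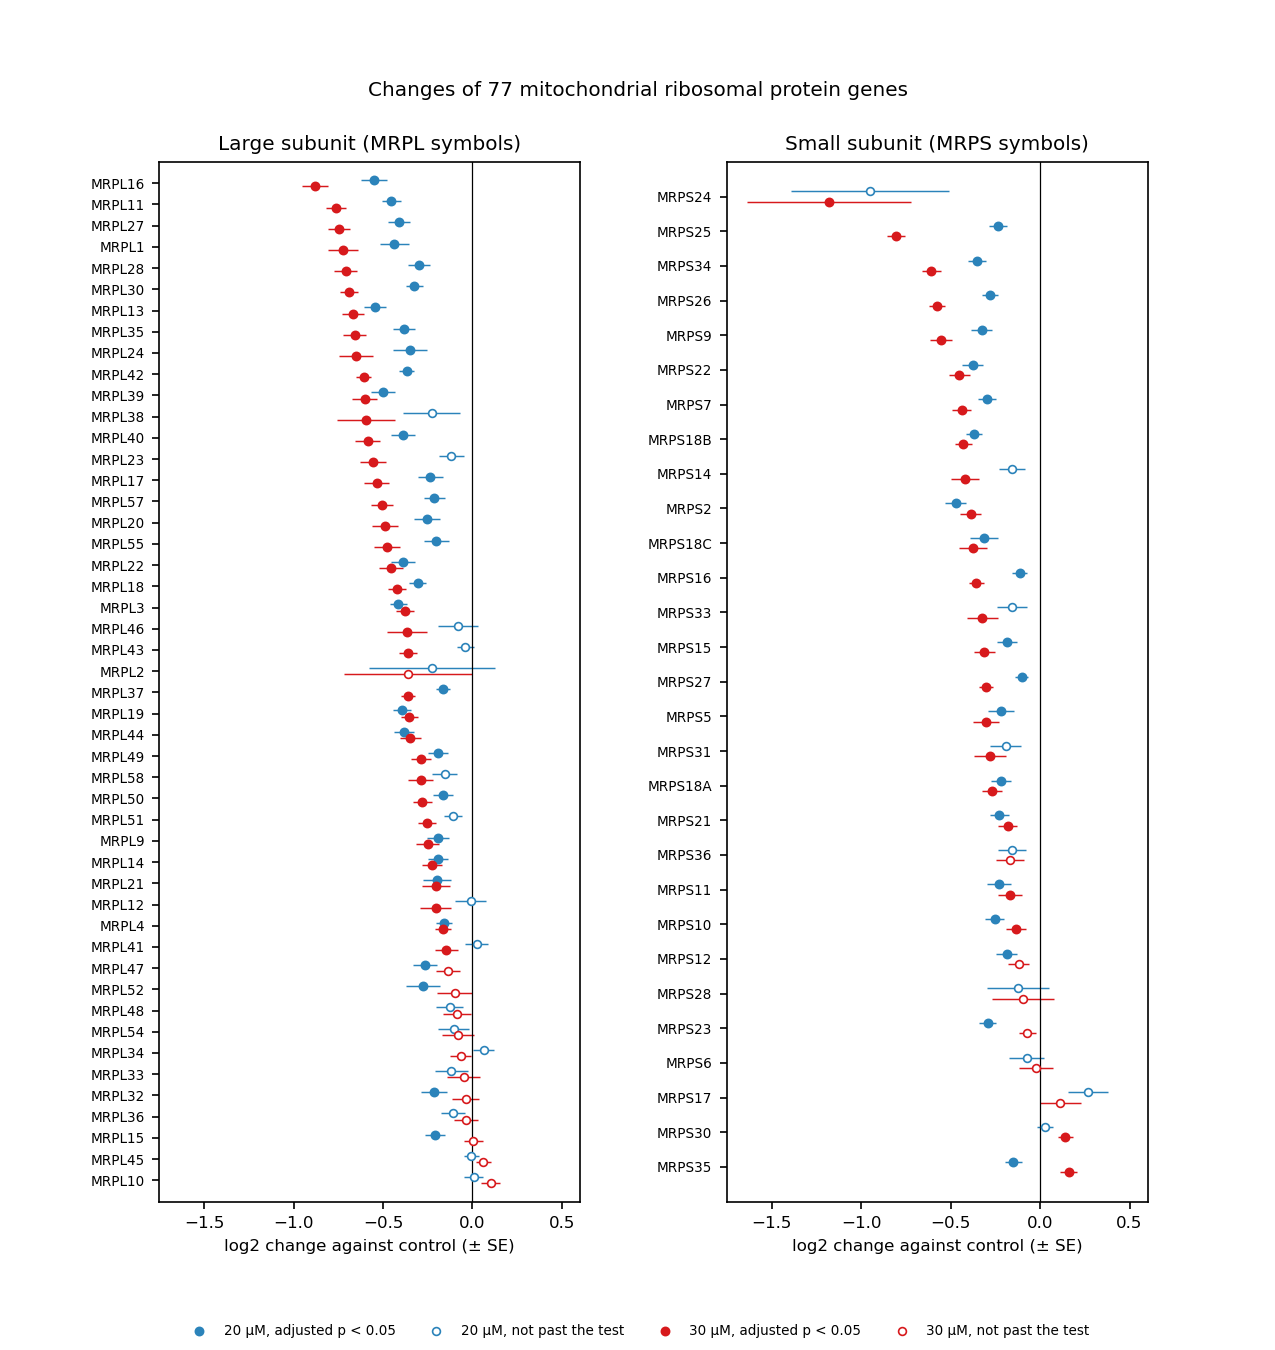
Log2 change ± SE of each of the 77 members against control at 20 µM (blue) and 30 µM (red), in order of the 30 µM change, with filled points for an adjusted p under 0.05. Most points lie left of 0, the 30 µM points usually farther, and MRPS30 and MRPS35 are the filled points to the right.

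Assignment by symbol and by structure differ for 3 genes. MRPS30 and MRPS18A carry small subunit names but sit in the large subunit (as mL65 and mL66), and MRPS36 is now placed in the 2-oxoglutarate dehydrogenase complex. The small over large ratio by symbol was 0.669 to 0.686 in controls, 0.679 to 0.697 at 20 µM and 0.709 to 0.715 at 30 µM, so that only the 30 µM libraries stood above all controls. With the 3 genes reassigned, the ratio was 0.560 to 0.578 in controls, 0.557 to 0.575 at 20 µM and 0.573 to 0.579 at 30 µM, and the groups overlapped. The medians by structure at 30 µM were -0.36 for 50 large and -0.32 for 26 small subunit genes. MRPS36 itself was 21.0 ± 0.727 CPM in controls and 18.7 ± 0.46 CPM at 30 µM (SD, n = 3), a log2 change of -0.17 that missed the test (edgeR adjusted p = 0.0634).

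Origin, shared exons and abundance were also compared by count. Over all genes tested 16.9% were lower and 17.2% higher at 20 µM, and 31.3% were lower and 29.5% higher at 30 µM. Shares for other genes of like abundance were not computed. Of the 46 members with a bacterial counterpart, 34 fell at 20 µM and 34 fell at 30 µM, with medians of -0.23 and -0.36. Of the 30 ribosomal members without a bacterial counterpart, 18 fell at 20 µM, and 23 fell and 2 rose at 30 µM, with medians of -0.19 and -0.31. Of the 37 members that share no exon with another gene, 26 fell at each dose and 2 rose at 30 µM. Of the 40 that share some, 26 fell at 20 µM and 31 at 30 µM. The medians at 30 µM were -0.29 without and -0.36 with a shared exon. Of the 57 members with a mean of 500 counts or more, 46 fell at each dose. Among the 20 with fewer counts 6 fell at 20 µM and 11 at 30 µM, where the medians were -0.18 and -0.24. The thinner members thus passed the test less often by count while their medians were also below 0; the difference between the bands was not tested.

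Promoter sequence is shown for 6 members because it lets the falling and non-falling genes be compared letter by letter. The stretches are the 150 bases before the annotated start, from RefSeq windows on GRCh38.p14, 5′ to 3′ on the gene's strand. Capitals mark matches to 7 motifs searched on both strands: NRF1 (GCGCANGC), ETS, the family of GABPA (CCGGAAG), YY1 (AAGATGGCG), the CCAAT box (CCAAT), the GC box (GGGCGG), the E-box (CACGTG) and the CRE (TGACGTCA). The last 3 letters of the ETS motif are the first 3 of the YY1 motif, so a run can match both. MRPS25, MRPL28, MRPS18A and MRPL58 fell at 30 µM, MRPS23 did not pass the test there, and MRPS30 rose.
MRPS25, chr3:15065316-15065465, minus strand: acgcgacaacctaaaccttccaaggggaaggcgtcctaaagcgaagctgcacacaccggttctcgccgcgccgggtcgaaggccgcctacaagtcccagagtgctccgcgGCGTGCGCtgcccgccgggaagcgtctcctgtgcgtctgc
MRPL28, chr16:370539-370688, minus strand: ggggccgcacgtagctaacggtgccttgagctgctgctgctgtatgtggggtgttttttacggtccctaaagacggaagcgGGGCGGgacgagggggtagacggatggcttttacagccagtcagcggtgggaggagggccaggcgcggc
MRPS18A, chr6:43687792-43687941, minus strand: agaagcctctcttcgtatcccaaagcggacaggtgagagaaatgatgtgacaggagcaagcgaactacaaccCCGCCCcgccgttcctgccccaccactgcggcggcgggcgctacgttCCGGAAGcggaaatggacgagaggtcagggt
MRPL58, chr17:75012520-75012669, plus strand: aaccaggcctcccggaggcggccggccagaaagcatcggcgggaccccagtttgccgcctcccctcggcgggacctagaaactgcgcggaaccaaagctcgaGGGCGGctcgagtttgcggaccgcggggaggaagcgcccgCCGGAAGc
MRPS23, chr17:57850045-57850194, minus strand: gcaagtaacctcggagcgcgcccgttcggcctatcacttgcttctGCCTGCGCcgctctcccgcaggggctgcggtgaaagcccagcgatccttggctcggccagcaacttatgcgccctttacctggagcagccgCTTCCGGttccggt
MRPS30, chr5:44808797-44808946, plus strand: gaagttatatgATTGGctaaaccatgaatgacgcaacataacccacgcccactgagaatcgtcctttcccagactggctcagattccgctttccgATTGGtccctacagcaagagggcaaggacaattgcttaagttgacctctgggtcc

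In these stretches MRPS25 held an NRF1 match 40 to 33 bases before the start, and MRPS18A and MRPL58 each held a GC box and an ETS match. MRPS23 held an NRF1 and an ETS match although it did not pass the test at 30 µM, and MRPS30 held CCAAT boxes alone. The whole windows counted next reach beyond these bases. There MRPS30 also held a YY1 match, MRPS18A a YY1 match and a CCAAT box, and MRPL28 an ETS match and further GC boxes. MRPL58 held an NRF1 match and a further ETS match there. Over whole windows, 250 bases before to 50 bases after the start, 68 of 77 members had a sequence. An ETS match was in 41.2% of them, against 19.4% of 10037 other protein-coding genes tested and 10.7% of all 27305 windows. For NRF1 the shares were 33.8%, 21.6% and 12.5%, and for YY1 they were 19.1%, 3.96% and 1.85%. GC boxes (60.3%, 69.8% and 44.6%) were rarer in members than in other protein-coding genes but more frequent than in all windows. E-boxes (8.82%, 10.2% and 7.43%) also lay between the backgrounds, and CCAAT boxes (29.4%, 37.0% and 35.7%) lay below both. No member window held a CRE (3.37% of other protein-coding genes and 1.98% of all windows did). Among the members, an ETS match was in 39.6% of the 53 that fell at 30 µM and in 46.7% of the other 15. The NRF1 shares were 30.2% and 46.7%, and the YY1 shares 17.0% and 26.7%. A match is a description of letters, not of binding.

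Among large subunit proteins of the ribosome's active core, the steepest fall was that of MRPL16 (chr11:59806135-59810872, minus strand, GENCODE 29), the counterpart of bacterial L16 near the peptidyl transferase centre. It stood at 30.3, 32.4 and 30.1 CPM in controls, 20.3, 20.9 and 22.1 CPM at 20 µM, and 18.7, 15.96 and 15.9 CPM at 30 µM. The 3 groups did not overlap, and each dose was lower than the one before. The log2 changes against control were -0.55 ± 0.07 (SE) at 20 µM (edgeR adjusted p = 1.08e-07) and -0.88 ± 0.07 at 30 µM (adjusted p = 1.36e-12). MRPL27 (chr17:50367857-50373214, minus strand), whose bacterial counterpart reaches into the same centre, went from 52.5, 47.8 and 50.8 CPM to 39.4, 33.8 and 40.6 CPM at 20 µM. At 30 µM it was 29.03, 29.6 and 31.6 CPM, again below every library of the lower dose (log2 -0.41 and -0.74 against control).

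The stalk of the large subunit, which recruits translation factors, did not move as a unit. MRPL11, the protein at the stalk base (chr11:66435075-66466738, minus strand), stood at 54.7, 58.4 and 58.7 CPM in controls. It was 43.5, 43.3 and 38.6 CPM at 20 µM and 33.8, 32.8 and 34.6 CPM at 30 µM, with no overlap between groups (log2 -0.45 and -0.76 ± 0.06, SE, at 30 µM, edgeR adjusted p = 6.78e-14). MRPL10, which anchors the stalk, was 62.0, 60.2 and 55.4 CPM in controls, 57.8, 63.6 and 57.1 CPM at 20 µM, and 64.8, 59.5 and 66.3 CPM at 30 µM. Its groups overlapped and neither change passed the test (log2 0.01 and 0.10, edgeR adjusted p = 0.946 and 0.103). MRPL12, the mobile stalk protein, was 21.6, 19.5 and 20.1 CPM in controls, 17.6, 21.8 and 21.4 CPM at 20 µM and 17.1, 15.96 and 20.03 CPM at 30 µM. At 30 µM it fell by 0.21 on the log2 scale with an edgeR adjusted p of 0.0440, although its libraries overlapped with controls. That call did not hold in DESeq2 (adjusted p = 0.125) or limma voom (0.0623), nor without control library 1 or 3 (0.165 and 0.0673) or 30 µM library 1 or 2 (0.135 and 0.238). Another gene shares 68.2% of the MRPL12 exon length on the same strand in GENCODE 29, so its counts are uncertain. MRPL1, of the other stalk by which spent transfer RNA leaves, fell from 20.3 ± 1.60 CPM to 15.05 ± 0.499 and 12.4 ± 0.827 CPM (SD, n = 3).

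**Figure D3:**
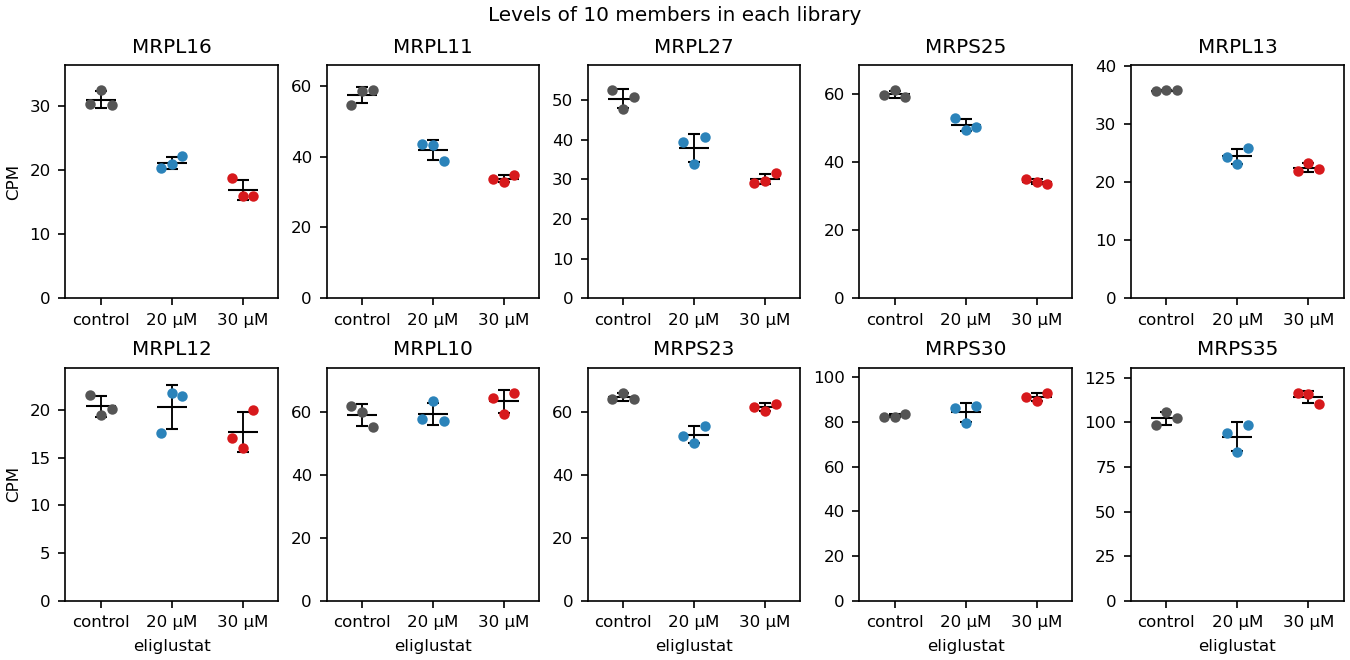
CPM of 10 members in each library (points) with the mean and SD (bars, n = 3), on axes that start at 0. MRPL16, MRPL11, MRPL27 and MRPS25 step down at each dose, MRPL13 steps down mainly by 20 µM, and MRPL12 and MRPL10 overlap between groups. MRPS23 is lowest at 20 µM and slightly below control at 30 µM, and MRPS30 and MRPS35 are highest at 30 µM.

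Large subunit members differed in how the fall was divided between the doses. MRPL13, a protein that joins the bacterial subunit early, went from 35.6, 35.8 and 35.8 CPM in controls to 24.4, 23.2 and 25.8 CPM at 20 µM. At 30 µM it was 21.9, 23.3 and 22.3 CPM, overlapping the lower dose, and the difference between the doses missed the test (log2 -0.12, edgeR adjusted p = 0.106). MRPL39, a mitochondrion-specific protein, behaved alike in value, at 27.6 ± 0.258, 19.5 ± 1.54 and 18.2 ± 0.173 CPM (SD, n = 3; between the doses edgeR adjusted p = 0.238). By contrast, MRPL23, which lines the exit of the peptide tunnel, was 32.0, 37.6 and 41.5 CPM in controls and 34.4, 34.5 and 33.4 CPM at 20 µM, with overlap. It then stood at 23.9, 26.2 and 25.5 CPM at 30 µM, below all other libraries (log2 -0.43 ± 0.07, SE, between the doses, edgeR adjusted p = 9.35e-06). MRPL28 and MRPL30 fell at each step, from 39.4 to 32.0 and 24.1 CPM and from 70.7 to 56.4 and 43.9 CPM. Other genes share 7.33% of the MRPL28 and 19.5% of the MRPL30 exon length on the same strand. MRPL43, named after its values were seen, moved between the doses (60.4 to 48.3 CPM) after a change of -0.04 at 20 µM that missed the test. Its exons share 36.9% of their length with a gene on the other strand.

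Of the other named large subunit genes, some did not follow the majority and others fell. MRPL45, which holds the ribosome at the inner membrane beside the tunnel exit, was 88.2 to 89.8 CPM in controls, 86.6 to 89.9 CPM at 20 µM and 88.0 to 97.2 CPM at 30 µM, with no call in any comparison. MRPL15 and MRPL32 fell at 20 µM (from 45.4 to 39.2 CPM and from 21.0 to 18.1 CPM) and were higher again at 30 µM (45.5 and 20.4 CPM), with edgeR adjusted p-values between the doses of 0.00102 and 0.0461. For MRPL32, whose import-linked processing is done by the m-AAA protease, the rise between the doses becomes -0.017 when library size alone sets the scale. That rise was also lost without any 1 of 5 libraries (adjusted p 0.0611 to 0.232), and the fall at 20 µM without any 1 of 4 (0.0643 to 0.1496). For MRPL15 and MRPS23 the difference between the doses missed the test with library size alone (0.779 and 0.634). MRPL44, which has a ribonuclease III fold, fell from 50.1 ± 1.90 CPM to 38.5 ± 2.82 and 39.4 ± 2.08 CPM (SD, n = 3). MRPL58, a peptidyl-tRNA hydrolase built into the ribosome, was 22.4 ± 0.25, 20.1 ± 0.422 and 18.3 ± 0.45 CPM, past the test at 30 µM alone (log2 -0.29, edgeR adjusted p = 0.000506). MRPL41, at 36.9, 37.5 and 33.3 CPM, passed the test at 30 µM (log2 -0.15, edgeR adjusted p = 0.0486) but missed it in 11 of the alternative fits, with adjusted p-values of 0.0530 to 0.295, the highest without 30 µM library 1. MRPL37 and MRPL4 fell from 131 to 117 and 102 CPM and from 75.0 to 67.3 and 67.0 CPM.

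MRPL2, a core protein next to the peptidyl transferase centre that was named after its values were seen, had the widest spread for its level. It stood at 17.1, 9.74 and 8.41 CPM in controls, 7.59, 9.52 and 13.2 CPM at 20 µM and 8.47, 7.51 and 11.5 CPM at 30 µM. In each group the high value came from one of the 3 libraries that deviate together. Its change at 30 µM was -0.36 ± 0.36 (SE, edgeR adjusted p = 0.429).

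In the small subunit the largest well-counted fall was that of MRPS25 (chr3:15042460-15065335, minus strand), a mitochondrion-specific protein and the first of the promoters printed above. It stood at 59.6, 61.0 and 59.0 CPM in controls, 52.8, 49.4 and 50.2 CPM at 20 µM and 35.04, 34.1 and 33.4 CPM at 30 µM. The 3 groups did not overlap, and most of the fall lay between the doses. The log2 changes were -0.24 ± 0.05 (SE) at 20 µM (edgeR adjusted p = 0.000209), -0.81 ± 0.05 at 30 µM (adjusted p = 1.28e-15) and -0.57 ± 0.05 between the doses (adjusted p = 1.46e-11). Part of the MRPS25 exon length is shared with another gene, on the other strand. MRPS34 and MRPS26, both mitochondrion-specific, fell from 61.2 to 47.9 and 40.2 CPM and from 84.1 to 69.2 and 56.4 CPM. MRPS2 fell at both doses, from 65.9 ± 3.97 CPM to 47.6 ± 3.28 and 50.5 ± 3.80 CPM (SD, n = 3). Its difference between the doses missed the test (log2 0.09, edgeR adjusted p = 0.235) and was -0.11 with library size alone.

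MRPS24 had a larger fitted change at 30 µM, log2 -1.18 ± 0.46 (SE, edgeR adjusted p = 0.0257), but on few reads. Its counts were 17, 12 and 22 in controls, 8, 9 and 8 at 20 µM and 4, 6 and 10 at 30 µM. The call did not hold in DESeq2 (adjusted p = 0.0704), and without control library 3 it had an adjusted p of 0.110. Without 30 µM library 1 or 30 µM library 2 it was 0.106 and 0.0817. Another gene shares 23.2% of its exon length on the same strand, so reads that fit both could be missing from its count.

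The 3 MRPS18 genes encode variants of one bacterial protein, and all 3 passed the test downward at each dose. MRPS18B went from 76.6 ± 3.59 CPM to 59.2 ± 1.21 and 56.8 ± 1.88 CPM (SD, n = 3), log2 -0.37 and -0.43. MRPS18C, which takes the place of the bacterial protein in the small subunit, went from 19.2 ± 0.556 CPM to 15.5 ± 1.04 and 14.8 ± 0.635 CPM, log2 -0.31 and -0.37. MRPS18A went from 48.3 ± 2.19 CPM to 41.5 ± 2.23 and 40.1 ± 1.41 CPM, log2 -0.22 and -0.27. None of the 3 differed between the doses by the test (edgeR adjusted p = 0.489, 0.300 and 0.553 for A, B and C). Genes on the other strand share 47.0% of the MRPS18A exon length and 40.2% of that of MRPS18C.

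Of the other named small subunit proteins, MRPS12, of the decoding centre, fell at 20 µM (34.9 to 30.7 CPM) and missed the test at 30 µM (32.2 CPM, edgeR adjusted p = 0.0805). MRPS27, a protein with RNA-binding repeats, fell by 0.10 on the log2 scale at 20 µM and by 0.30 at 30 µM, from 128 to 119 and 104 CPM. The smaller of these calls was lost in 8 of the settings tried, with adjusted p-values of 0.0506 to 0.179, among them the fits without control library 1 or 2 (0.0866 and 0.130) or 20 µM library 2 or 3 (0.0996 and 0.108). The MRPS12 fall missed the test without control library 1 (0.0572) or 20 µM library 2 (0.0899). MRPS16 went from 154 to 142 and 119.97 CPM, MRPS15 from 52.0 to 45.8 and 42.0 CPM, and MRPS21 from 48.0 to 41.0 and 42.4 CPM. At 20 µM the MRPS16 call was lost without any 1 of 4 libraries (adjusted p 0.0874 to 0.222), in DESeq2 (0.0565) and limma voom (0.0514) and with upper-quartile factors (0.0599), and the MRPS15 call without 20 µM library 1 (0.113).

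Small subunit names also included the genes that rose. MRPS35 (chr12:27710773-27756295, plus strand) stood at 98.7, 106 and 102 CPM in controls, 94.02, 83.3 and 98.6 CPM at 20 µM and 116, 116 and 109.96 CPM at 30 µM. It was lowest at 20 µM and highest at 30 µM, without overlap between any of the groups. Its log2 changes were -0.15 ± 0.05 (SE) at 20 µM (edgeR adjusted p = 0.0159), 0.16 ± 0.05 at 30 µM (adjusted p = 0.00526) and 0.31 ± 0.05 between the doses (adjusted p = 2.84e-06). The fall at 20 µM missed the test without control library 2 (adjusted p = 0.0910) or 20 µM library 2 (0.168). MRPS30 (chr5:44808925-44820428, plus strand) was 82.4, 82.3 and 83.5 CPM in controls, 86.3, 79.5 and 87.1 CPM at 20 µM and 91.0, 89.5 and 93.0 CPM at 30 µM. It rose at 30 µM by 0.14 ± 0.04 (SE, edgeR adjusted p = 0.00514). Scaled by library size alone, the 30 µM changes of MRPS30 and MRPS35 became -0.070 and -0.050 and missed the test. With upper-quartile factors they were 0.08 and 0.10, with adjusted p-values of 0.113 and 0.0818, and without the 3 libraries that deviate together that of MRPS30 was 0.0624. Between the doses MRPS30 missed the test without 20 µM library 2 (0.170), 30 µM library 1 (0.0507) or 30 µM library 3 (0.0824). MRPS23 fell at 20 µM, from 64.2, 66.2 and 64.1 CPM to 52.6, 50.3 and 55.7 CPM, and was 61.8, 60.5 and 62.8 CPM at 30 µM. Its 30 µM libraries lay above every 20 µM library (log2 0.22 ± 0.05, SE, edgeR adjusted p = 0.000176) and below every control, a difference from control that missed the test (adjusted p = 0.200).

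Levels per exon length in controls spanned 0.248 to 74.6 CPM per kilobase of merged GENCODE 29 exons, with medians of 16.9 for large and 13.7 for small subunit genes. The highest in the small subunit were MRPS26 at 74.6 ± 1.96, MRPS34 at 55.8 ± 2.58 and MRPS16 at 55.0 ± 3.30 CPM per kilobase (SD, n = 3), the last 2 of which did not differ beyond their spread. In the large subunit they were MRPL14 at 59.3 ± 2.85, MRPL45 at 52.4 ± 0.542 and MRPL37 at 51.5 ± 1.06 CPM per kilobase. MRPL45 and MRPL37 did not differ beyond their spread. The lowest in the small subunit were MRPS24 at 0.248 ± 0.049, MRPS28 at 1.86 ± 0.235 and MRPS6 at 2.66 ± 0.235 CPM per kilobase. Those in the large subunit were MRPL38 at 1.33 ± 0.159, MRPL46 at 1.66 ± 0.222 and MRPL52 at 4.42 ± 0.527 CPM per kilobase. Merged exons include all annotated transcripts, so a gene with long rarely used exons is listed low. Neighbouring genes share 37.5% of the MRPL38 and 35.8% of the MRPS28 exon length on the same strand. Of these low genes MRPL38 and MRPL46 fell at 30 µM (log2 -0.59 and -0.37), MRPL52 fell at 20 µM (-0.28), and MRPS28 and MRPS6 passed no test. MRPL14 fell at both doses (-0.19 and -0.22). The MRPL52 call was lost without any 1 of 4 libraries (adjusted p 0.0595 to 0.167), the MRPL46 call without control library 1 (0.0794) and the MRPL14 call at 20 µM without control library 3 (0.0591) or 20 µM library 2 (0.0682).

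The 5 mitochondrial ribosomal proteins without an MRPL or MRPS symbol were taken as a separate list. PTCD3, a small subunit protein with RNA-binding repeats, stood at 169, 183 and 179 CPM in controls, 136, 129.75 and 139.53 CPM at 20 µM and 127, 122 and 124 CPM at 30 µM, without overlap of controls and treated libraries. AURKAIP1, CHCHD1 and GADD45GIP1 also fell at both doses, with log2 changes at 30 µM of -0.24, -0.63 and -0.32. DAP3, a GTP-binding protein of the small subunit, was 79.3 ± 4.76 CPM in controls, 74.4 ± 1.01 CPM at 20 µM and 85.6 ± 0.853 CPM at 30 µM (SD, n = 3). Its rise at 30 µM (log2 0.11, edgeR adjusted p = 0.0346) was lost without any 1 of 5 libraries, and in 4 other settings. With library size alone it became -0.10, and without the 3 libraries that deviate together it was 0.06 (adjusted p = 0.346). By count the list went 4 lower at 20 µM, and 4 lower and 1 higher at 30 µM. Over all genes 16.9% were lower at 20 µM and 31.3% at 30 µM.

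Other genes of mitochondrial translation, from lists chosen with earlier results of these data known, were counted the same way. For these lists and those that follow, the shares over all genes were 17.2% higher and 16.9% lower at 20 µM. At 30 µM they were 29.5% higher and 31.3% lower. Of 27 ribosome assembly factors 12 fell and 1 rose at 20 µM, and 18 fell and 3 rose at 30 µM, with medians of -0.19 and -0.34. The 3 largest changes at 30 µM in that list were those of TFB1M, which methylates the small ribosomal RNA (53.3 to 31.1 CPM, log2 -0.78), MRM1, which methylates the large one (13.5 to 8.74 CPM, -0.63), and METTL17 (41.4 to 28.5 CPM, -0.54). Of 22 genes for charging mitochondrial transfer RNA 13 fell at 20 µM, and 14 fell and 3 rose at 30 µM (medians -0.32 and -0.46). AARS2 and EARS2, which load alanine and glutamate, changed by -0.92 and -0.85 at 30 µM. Of 17 translation factors 7 fell and 1 rose at 20 µM, and 10 fell and 2 rose at 30 µM (medians -0.17 and -0.24). Within that list MTRF1L, a release factor, rose from 20.4 to 31.3 CPM (log2 0.62), while GUF1 and MTRFR fell by 0.56 and 0.57 on the log2 scale. Of 20 transcription and RNA processing genes 14 fell at 20 µM, and 12 fell and 1 rose at 30 µM (medians -0.31 and -0.18), with GTPBP3, TRMU and FASTKD3 at -0.67, -0.66 and -0.62. With library size alone the counts at 30 µM were 22 lower for assembly, 19 lower and 1 higher for charging, 14 lower and 1 higher for translation factors and 18 lower for transcription and RNA processing.

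**Figure D4:**
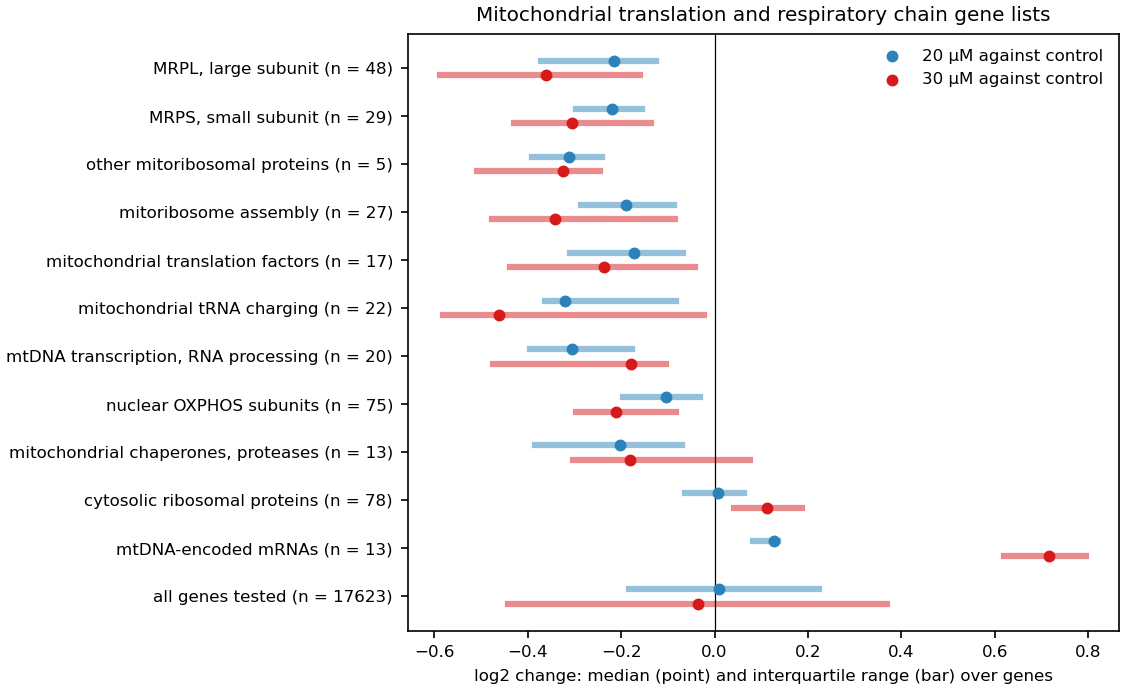
Median log2 change (points) and interquartile range over genes (bars) at 20 µM (blue) and 30 µM (red) against control for the 77 members by subunit, for 9 lists of related genes and for all 17623 genes tested. Both subunits and the lists of mitochondrial translation lie left of 0, and the mRNAs encoded by mitochondrial DNA lie to the right, at 0.71 for 30 µM.

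The templates of the mitochondrial ribosome did not move with the transcripts of its proteins. Of the 13 mRNAs encoded by mitochondrial DNA 1 rose at 20 µM, and 11 rose at 30 µM (medians 0.13 and 0.71), while none was called lower at either dose. At an unadjusted p under 0.05 none was lower either, nor by DESeq2 or limma voom. MT-CO1, a core subunit of cytochrome c oxidase, went from 11762 ± 649 CPM to 12846 ± 154 and 24411 ± 627 CPM (SD, n = 3). MT-CYB and MT-CO3 rose at 30 µM by 0.91 and 0.83. The 20 µM median became 0.29 without control library 1. The 20 µM count became 6 without the 3 libraries that deviate together, and the 30 µM count became 8 with library size alone. Summed over the 13, the level was 28253 to 38077 CPM in controls and 56758 to 63942 CPM at 30 µM. The ribosomal RNAs MT-RNR1 and MT-RNR2, which depletion of ribosomal RNA is meant to remove, varied between libraries (34.8 to 89.2 CPM for MT-RNR1 in controls and 94.5 to 414 CPM at 30 µM). Neither passed the test in edgeR (adjusted p = 0.0822 and 0.0756 at 30 µM), whereas DESeq2 and limma voom called both higher there. Their highest values in each group lay in the libraries that deviate together.

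Nuclear genes of the respiratory chain, counted beside them, fell less in median. Of 75 such genes 23 fell at 20 µM, and 44 fell and 2 rose at 30 µM (medians -0.10 and -0.21), or 67 and 1 with library size alone. NDUFV2, of complex I, rose from 7.44 to 12.2 CPM (log2 0.72), while NDUFB10 and NDUFB1 of the same complex fell by 0.66 and 0.64. Of 78 cytosolic ribosomal protein genes tested 5 rose and 4 fell at 20 µM, and 39 rose and 4 fell at 30 µM (medians 0.01 and 0.11), but with library size alone 2 rose and 24 fell at 30 µM and the median was -0.10. Without the 3 libraries that deviate together 9 rose and 15 fell at 20 µM. In that list RPL28 rose by 0.42, and RPS26 and RPS10 fell by 0.48 and 0.45; such genes have many near-identical pseudogenes, so their counts are uncertain.

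Among 9 regulators of mitochondrial biogenesis 3 rose and 4 fell at 20 µM, and 5 rose at 30 µM, or 3 rose and 3 fell there with library size alone. PPARGC1A, a coactivator, went from 51.5, 49.6 and 49.4 CPM to 78.7, 77.01 and 80.9 CPM at 20 µM and 74.6, 73.7 and 69.5 CPM at 30 µM. ESRRA, a nuclear receptor it works with, went from 45.9 to 62.5 and 73.8 CPM, and MYC from 318 to 359 and 507 CPM. Transcripts of the factors whose motifs were searched were measured too: NRF1 stood at 22.2, 18.6 and 22.3 CPM, GABPA at 27.6, 26.8 and 30.3 CPM and YY1 at 126, 115 and 132 CPM. Of these, NRF1 and YY1 fell at 20 µM, and no change at 30 µM passed the test. GABPB1, also among the 9, had the lowest log2 change of that list at each dose (-0.36 at 20 µM and -0.075 at 30 µM). Of 13 mitochondrial chaperones and proteases 9 fell and 1 rose at 20 µM, and 7 fell and 3 rose at 30 µM, or 10 fell with library size alone. TRAP1, DNAJA3 and SPG7 fell by 0.52, 0.37 and 0.31 at 30 µM.

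The start sites of neighbouring genes were also compared. In GENCODE 29, 18 of 77 members (23.4%) started within 1000 bases of a protein-coding gene that runs the opposite way, against 11.03% of 12372 other protein-coding genes tested, a difference that was not tested. Of the 16 partners tested, named here after their values were seen, 7 fell and 1 rose at 20 µM, and 11 fell and 2 rose at 30 µM, with medians of -0.15 and -0.43. Over all genes 16.9% and 31.3% fell. The partners include MRPL46 and MRPS11, which are each other's partner and members themselves, and which are among the 11. EME1, whose start lies 6 bases from that of MRPL27, encodes a DNA repair nuclease subunit and went from 13.0 ± 0.823 CPM to 8.56 ± 0.275 and 2.25 ± 0.234 CPM (SD, n = 3). SKA3, a kinetochore gene 43 bases from MRPL57, went from 23.4 ± 0.111 to 13.5 ± 0.934 and 7.55 ± 0.374 CPM. MRPL57 itself went from 38.4 to 33.1 and 27.0 CPM. The MRPL30 partner MITD1, at 21 bases, fell by 0.57 at 30 µM, but the MRPL21 partner IGHMBP2, at 7 bases, rose by 0.28 on the log2 scale. One pair joins both subunits: MRPL46 and MRPS11 start 34 bases apart. MRPS11 fell at 20 µM (28.8 ± 2.21 to 24.5 ± 0.954 CPM, SD, n = 3) while MRPL46 missed the test there (10.7 ± 1.43 and 10.2 ± 1.25 CPM). At 30 µM both passed the test, MRPL46 at -0.37 and MRPS11 at -0.17 on the log2 scale. MRPS11 missed it without control library 1 at either dose (adjusted p = 0.107 and 0.263), and at 30 µM without 30 µM library 2 (0.210) or 3 (0.0875). Without the 3 libraries that deviate together it missed at both doses (0.0824 and 0.326), and at 30 µM also in DESeq2 (0.127), with median-ratio factors (0.0713), without the count filter (0.0655) and with only the groups compared (0.0561).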

How the data were processed

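The deposited file of each library gives read counts for every gene. The submitters' processing notes name STAR 2.7.10a, HTSeq, FastQC and the build hg38. The deposited counts were used as they are, without the 5 closing totals (40.6% to 44.0% of records in no single gene). Neither the annotation release nor the strand setting of the counting is given in the sources used here, so overlapping and antisense genes are uncertain. The labels call the molecule polyA RNA but describe depletion of ribosomal RNA from total RNA and extraction with a kit meant for fixed tissue. A lower dose in the series text was not analysed here, and its mention of a further incubation is unclear for these libraries.

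Of 62703 identifiers 62686 had a symbol and 58264 a type and position in GENCODE 29. After filterByExpr and TMM scaling, the quasi-likelihood test of edgeR 4.0.16 was run in R 4.3.3 (robust, a mean per group over 9 libraries), with Benjamini-Hochberg adjustment over 17623 genes at 0.05. SEs of log2 changes were taken as |log2 change| over the square root of F. The test was checked on simulated data. Replicate libraries all differed by more than sampling noise, with a chi-square per gene of 2.10 to 8.02. Of 309 list symbols 1 (FASTKD4) was not matched by symbol.

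The members and lists were chosen with earlier results of these data known, so no p-value is given for a list. Named members are those past the test without overlap (the 5 highest and 5 lowest changes per comparison), those called against the majority, the 3 highest and 3 lowest levels per length in each subunit, and 12 fixed by role; from each other list, the 3 largest called changes at 30 µM and all 5 other mitoribosomal proteins. One gene that this rule names is not reported here. Alternatives were median-ratio and upper-quartile factors, library size alone, DESeq2 1.42.0, limma 3.58.1 voom, no count filter, a mean of 50 counts, only the groups compared, a replicate block, assignment by structure and each library left out. The fit without 3 libraries was added after the data were seen.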

Additional observations from a re-analysis of the deposited data

How the results depend on the processing

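The number of members changed was 44 to 53 at 20 µM and 53 to 71 at 30 µM over the alternatives tried, within 1.5 times the reported counts of 52 and 59. Between the doses it was 27 to 58, and only library size alone, with 58, moved the count of 33 by more than that. With library size alone the medians became -0.57 (large) and -0.51 (small) at 30 µM against control and -0.32 (large) and -0.27 (small) between the doses. With upper-quartile factors the small subunit medians became -0.37 and -0.15. Mean large subunit sums also moved with the other scalings and with assignment by structure. They were 2097 to 2241 CPM in controls, 1783 to 1916 CPM at 20 µM and 1507 to 1785 CPM at 30 µM. The main values were 2110, 1790 and 1654 CPM, so the percentages below control given for the sums hold for TMM scaling and assignment by symbol. Among changes past the test in either fit, library size alone also turned the sign of MRPL15 (-0.21), MRPL45 (-0.15), MRPS30 (-0.070), MRPS35 (-0.050) and DAP3 (-0.10) at 30 µM against control. Between the doses it turned MRPL3 (-0.16), MRPL32 (-0.017), MRPL44 (-0.16), MRPL45 (-0.13), MRPS21 (-0.14) and MRPS30 (-0.081). Of named genes past the test in neither fit it turned MRPL10 at 20 µM (-0.01), MRPL10 (-0.11) and MRPS17 (-0.096) at 30 µM, and between the doses GADD45GIP1 (-0.079), MRPL10 (-0.10), MRPL52 (-0.019), MRPS2 (-0.11), MRPS6 (-0.14), MRPS11 (-0.13), MRPS12 (-0.13) and MRPS28 (-0.16). These scalings shift all genes, by construction. Same-numbered libraries were not paired by the labels, and their deviations correlated from -0.20 to 0.35. With the replicate number as a block 51, 59 and 33 members changed.

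Depth limits the thinnest member most: MRPS24, at a mean of 10.7 counts, had an SE of 0.46 (log2) at 30 µM, more than the size of the median change of the members. Levels are relative to each library's total, so a change in total RNA per cell cannot be seen.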
